A study of Mus musculus with 3 samples.

Results

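The comparison set the spinal cord RNA of embryos with a stabilised β-catenin directly against that of embryos that lost β-catenin, with the wild type library shown beside the ratio but not used in it. Genes that reached 20 counts in either library were taken as measured, which gave 17788 of the 51826 genes in the deposited table, and the same rule gave 45792 of 128622 transcripts. All embryos were C57BL/6 mice at embryonic day 13.5. The dE3 library came from Nestin-Cre;Ctnnb1-floxed(Ex3) embryos, in which Cre removes exon 3 of Ctnnb1 and which the labels call a gain of function. The cKO library came from Nestin-Cre;Ctnnb1-floxed(Ex2-6) embryos, in which Cre removes exons 2 to 6, a loss of function in the labels. The third library was from wild type embryos (WT), for which no Cre or floxed allele is listed. Each genotype was represented by 1 library, and how many embryos went into it is not stated.

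Ctnnb1 encodes β-catenin, a protein that links cadherins to the cytoskeleton at cell junctions and that also carries canonical Wnt signals into the nucleus. Without a Wnt signal, a destruction complex phosphorylates its amino-terminal end, which exon 3 encodes, and the protein is degraded. With a signal, or without exon 3, it accumulates and works with TCF/LEF factors on target genes, many of which encode inhibitors of the same pathway. In the early spinal cord, Wnt proteins from the roof plate act on dorsal progenitors. The Nestin promoter drives Cre in neural progenitors and their descendants. Cells that Cre did not reach keep an intact gene, whether neural or of other tissue such as blood vessels and meninges. Which cells Cre reached was not measured here.

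The libraries held 34790053 (dE3), 33048837 (cKO) and 32167470 (WT) estimated counts, and mitochondrial genes took 2.24% to 2.97% of them. Levels are given as counts or as CPM, counts scaled by library size and composition. With 1 library per genotype there is no replicate check and no p-value: the values compare these libraries. Each ratio has an exact 95% interval that covers counting error only. A gene is called higher or lower where dE3 and cKO differed at least 2-fold and the interval excluded 1. Over all measured genes, 6.27% were higher and 4.61% lower, the shares to set beside the counts of each list. A gene that reached the minimum in 1 library only could be called only as higher in that library. Where a library had 0 counts of a gene, 3 counts were put in their place, and the ratio is a bound. The tag in the name of the cKO library differs from that of the other 2 libraries, and what it marks is not stated. If the tag marks a separate preparation or run, effects of that cannot be told apart from the cKO genotype. In bulk tissue, fewer cells of a type and less RNA per cell cannot be told apart either. As a check of the labelled tissue, neuronal Tubb3 stood at 1788 CPM in dE3 and 2090 in cKO, and of 16 brain regional genes 6 were measured. Emx2 (61, 5 and 0 counts in dE3, cKO and WT, 11.3-fold higher) and Otx1 (24, 2 and 1 counts, 11.1-fold higher) were the 2 of these higher in dE3. They passed the minimum only through dE3, so neither could have been called lower. Of the 6 measured, 0 were lower, and Otx2 had 0 counts in every library. Xist and the Y-linked gene Kdm5d were counted in every library (1478, 926 and 947 CPM and 31.6, 27.7 and 41.8 CPM in dE3, cKO and WT).

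The sequence that separates the dE3 allele from the wild type is exon 3, shown because its removal keeps the reading frame. It lies at chr9:120950522-120950749 on the plus strand (GRCm38), is coding throughout, and its 228 bases leave a remainder of 0 when divided by 3. It makes up 6.29% of the 3623-base full-length transcript. Exon 3 is in capitals, with 20 bases of the spliced neighbouring exons on each side in lower case.

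Ctnnb1 exon 3: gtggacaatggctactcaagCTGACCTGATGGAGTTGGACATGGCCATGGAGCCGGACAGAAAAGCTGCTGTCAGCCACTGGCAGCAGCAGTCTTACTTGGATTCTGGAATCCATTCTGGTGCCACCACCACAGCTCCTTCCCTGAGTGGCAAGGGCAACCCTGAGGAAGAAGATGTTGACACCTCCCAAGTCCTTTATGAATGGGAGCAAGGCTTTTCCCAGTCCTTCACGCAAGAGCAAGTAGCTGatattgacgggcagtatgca

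Targets of TCF/LEF factors often carry a CTTTGAT word near their start. The 2 promoters below are those of measured Wnt target genes, described further on, that hold it on either strand within 250 bases before to 50 bases after the start. The 250 bases before the start are printed from the RefSeq promoter table (GRCm38.p6), with the word in capitals. That of Sp5 (chr2:70474673-70474922, plus strand) has it on the plus strand at -104, and that of Tnfrsf19 (chr14:61037988-61038237, minus strand) has it on the opposite strand at -202.

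Sp5 promoter: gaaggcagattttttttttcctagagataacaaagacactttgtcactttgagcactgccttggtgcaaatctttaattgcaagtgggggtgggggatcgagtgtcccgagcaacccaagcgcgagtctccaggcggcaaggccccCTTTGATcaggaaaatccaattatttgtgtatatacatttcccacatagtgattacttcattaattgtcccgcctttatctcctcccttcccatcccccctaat

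Tnfrsf19 promoter: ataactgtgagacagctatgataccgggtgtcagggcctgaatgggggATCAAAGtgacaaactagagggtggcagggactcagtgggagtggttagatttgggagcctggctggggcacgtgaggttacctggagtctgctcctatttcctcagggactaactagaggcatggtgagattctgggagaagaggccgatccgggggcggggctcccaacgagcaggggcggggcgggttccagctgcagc

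Of 11 measured Wnt target genes with a promoter in the table, 2 held the word (18.2%). Among all 32851 promoters of this length the share was 3.73%. Counted per gene, with the word in any of its promoters, it was 4.29% of all genes (1160 of 27025). Among measured genes the share was 3.06% (368 of 12022). It was 4.22% for genes called higher in dE3 (25 of 593) and 4.09% for genes called lower (19 of 464), so the shares of the directions were close. Of the 160 genes with a promoter that were at least 4-fold higher in dE3, 13 held it (8.13%). A match is a description of the letters and not of binding.

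Ctnnb1 itself (ENSMUSG00000006932, chromosome 9, 120929216 to 120960507, plus strand) differed little between the libraries as a whole gene. It had 16158 counts in dE3, 13936 in cKO and 17387 in WT, which is 456, 426 and 544 CPM. The dE3-to-cKO ratio was 1.07 (1.05 to 1.10), and the log2 ratio was 0.10 from counts and 0.49 from the TPM values of the authors. The total counts every exon, and no annotated transcript skips exon 3 alone, so the gene's level does not show the exon 3 deletion. Exons 2 to 6 make up 27.2% of the full-length transcript, and cKO had the lowest level of the 3 libraries. The part of their loss in that level was not tested. In all 3 libraries 96.3% to 97.8% of its counts were assigned to transcripts that hold the whole of exon 3, the dE3 library included.

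The transcripts of Ctnnb1 took very different shares of that total. A shorter model with a retained intron (ENSMUST00000154687) had 11477 counts in dE3, 1922 in cKO and 7116 in WT. That was 71.0% of the gene in dE3 and 13.8% in cKO, and its scaled count was 5.52-fold higher in dE3 (5.26 to 5.79). The full-length coding transcript (ENSMUST00000007130) went the other way, with 2807 counts in dE3 and 9189 in cKO, 3.54-fold lower in dE3 (3.4 to 3.70). WT lay between the 2 mutants for both, at 40.9% and 33.9% of the gene. A second coding model, ENSMUST00000178812, had 473 counts in dE3 and 0 in both other libraries. Without the model with the retained intron, the log2 ratio of the gene was -1.47, so its direction rests on how counts were divided among transcripts.

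**Figure D1:**
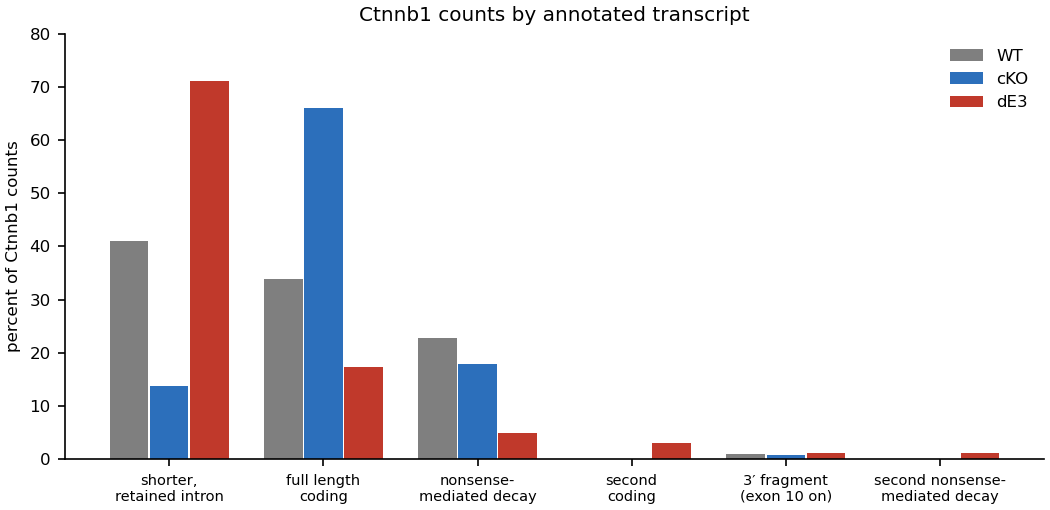
Percent of the Ctnnb1 counts of each library (y axis) assigned to each annotated transcript with at least 1% in some library (x axis), 1 bar per library. The model with a retained intron holds 71.0% in dE3 and 13.8% in cKO, and the full-length coding transcript 17.4% and 65.9%.

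Feedback and target genes of the Wnt pathway were much higher in dE3 than in cKO, while the summed levels of cKO and WT lay close together. Of 23 genes on the list, 19 were measured, and 13 of these were higher, 0 lower and 6 neither, against 6.27% of all measured genes higher and 4.61% lower. Their median log2 ratio was 1.90, against -0.01 over all measured genes, and their summed level was 2712 CPM in dE3, 435 in cKO and 397 in WT. Some members passed the minimum only through dE3, such as Dkk4, a secreted inhibitor with 21 counts in dE3 and 0 in the others (at least 6.47-fold). With 100 counts required, 11 were higher. The members not measured had few counts everywhere: Fgf20 had 8 in dE3 and 0 in cKO, Cdx2 had 2 and 0, Cdx1 had 0 in both, and Ascl2 had 15 and 13.

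The secreted inhibitors Wif1 and Notum and the membrane ligase Rnf43 had the largest ratios of the list. Wif1, which binds Wnt proteins outside the cell (chromosome 10, 121033960 to 121100650), had 9708 counts in dE3, 71 in cKO and 58 in WT, a 126-fold difference (100.1 to 162). Most of that fold rests on 1 transcript, since the log2 ratio was 6.98 with it and 2.65 without it. Notum, an enzyme that removes the lipid from Wnt proteins, had 4600, 124 and 58 counts in the same order (34.3-fold, 28.7 to 41.3). It overlaps the antisense gene Notumos (1348, 40 and 20 counts) and shares 29.6% of its words of 50 bases with another gene, so reads of the pair may be mixed. Rnf43, a ubiquitin ligase that removes Frizzled receptors, had 735, 22 and 16 counts, 30.9-fold higher (20.2 to 49.6), and its relative Znrf3 had 1308, 561 and 564, 2.15-fold higher (1.95 to 2.38). Apcdd1, a membrane inhibitor, stood at 555 CPM in dE3, 149 in cKO and 133 in WT, a ratio of 3.72. In each of these genes the high library was dE3, and cKO and WT lay closer to each other than to dE3.

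Several intracellular regulators and transcription factors of the list were higher as well. Nkd1, which binds Dishevelled, had 28194 counts in dE3, 1606 in cKO and 1563 in WT (16.2-fold, 15.4 to 17.1), while its paralogue Nkd2 had 595, 545 and 491 (ratio 1.01). Axin2, the scaffold of the destruction complex that Wnt signals induce, stood at 273, 36.1 and 41.3 CPM, 7.55-fold higher (7.11 to 8.03). The factor Sp5 had 2096, 96 and 50 counts, 20.2-fold higher (16.4 to 25). Lef1, a nuclear partner of β-catenin, had 2562, 235 and 158 counts (10.1-fold, 8.81 to 11.6), and its relative Tcf7 had 775, 312 and 249 (2.29-fold, 2.01 to 2.63). Tnfrsf19, a receptor of the tumour necrosis factor family, stood at 323, 45.4 and 33.0 CPM (7.11-fold), and T, the brachyury gene, had 43, 14 and 10 counts (2.84-fold, 1.52 to 5.62). Without its most different transcript, the log2 ratio fell from 2.92 to 1.74 for Axin2, from 4.95 to 3.30 for Rnf43 and from 2.83 to 2.18 for Tnfrsf19. The calls of Tcf7 and Znrf3 ended without their most different transcript, at log2 ratios of 0.93 and 0.94, and that of T with a pseudocount of 1 TPM, at 0.70.

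The other targets measured did not pass the threshold with all transcripts counted. Ccnd1, the cyclin of the G1 phase, had 3194 counts in dE3, 1772 in cKO and 1642 in WT, a ratio of 1.67 (1.57 to 1.77). The stem cell receptor Lgr5 had 433, 227 and 199 (1.76, 1.5 to 2.08), and the inhibitor Dkk1 had 72, 36 and 28 counts. All 3 were highest in dE3, and Ccnd1 and Lgr5 passed 2-fold without their most different transcript, at log2 ratios of 1.18 and 1.40. Myc, with 645, 771 and 774 counts, and Bambi, with 235, 268 and 182, lay slightly lower in dE3 than in cKO, by 0.37 and 0.30 on the log2 scale.

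**Figure D2:**
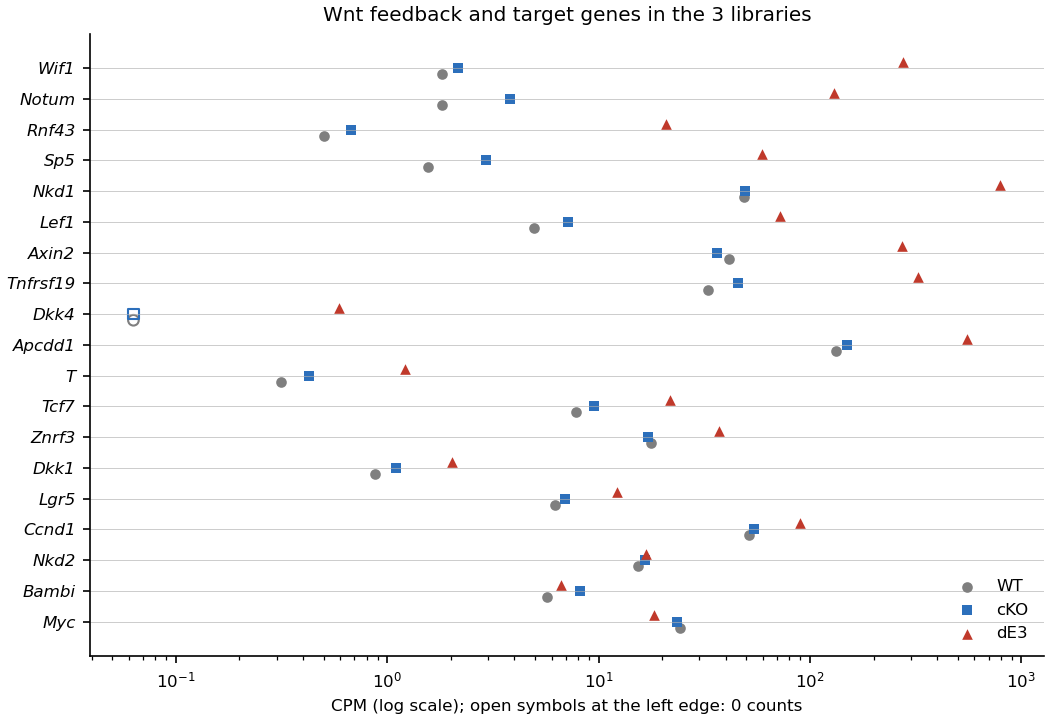
Level of each measured Wnt feedback and target gene (rows) in the WT, cKO and dE3 libraries, in CPM on a log scale, with open symbols for 0 counts. The dE3 triangles stand far to the right of both other libraries from Wif1 (274 CPM against 2.17 in cKO) down to Apcdd1, and the 3 libraries lie together for Nkd2, Bambi and Myc.

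The rest of the pathway did not move as a block. Among 18 receptors and co-receptors, 1 was higher and 0 were lower: Fzd10, a Frizzled receptor of the dorsal cord, had 11451 counts in dE3, 1143 in cKO and 1367 in WT (9.26-fold, 8.71 to 9.84). The list's median was 0.25, and Lrp6 and Ptk7 had log2 ratios of 0.11 and 0.20. Of 16 Wnt ligands, 3 were higher and 3 lower, beside 6.27% and 4.61% of all measured genes, and the median was -0.35. Wnt10a had 320 counts in dE3, 6 in cKO and 2 in WT (49.3-fold, 22.4 to 135), and Wnt10b had 21, 8 and 6. Wnt10a and Wnt10b passed the minimum only through dE3, so they could not have been called lower. Wnt5a, a ligand of non-canonical signals, was 2.83-fold higher (2.61 to 3.08) at 65.0 CPM against 22.9, but only 0.64 on the log2 scale when its most different transcript was left out. The roof plate ligands ran the other way: Wnt1 had 39, 128 and 148 counts in dE3, cKO and WT (3.55-fold lower, 2.46 to 5.22) and Wnt3a had 27, 70 and 48 (2.81-fold lower, 1.78 to 4.55). Wnt7b, a ligand made by neurons and progenitors, was 2.70-fold lower (2.49 to 2.93), with a log2 ratio of -0.87 without 1 transcript.

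Of 15 other secreted Wnt modulators, 3 were higher and 2 lower, beside 6.27% and 4.61% of all measured genes, and the median was -0.18. Sostdc1, an inhibitor of Wnt and BMP signals, had 627 counts in dE3, 126 in cKO and 134 in WT (4.6-fold higher, 3.79 to 5.61). Frzb and Sfrp2, secreted decoys of Wnt proteins, were 2.49-fold (2.25 to 2.77) and 2.10-fold lower (1.97 to 2.24). The 17 genes of the destruction complex and Dishevelled family had 0 members called and a median of -0.05. The same held for the 17 TCF factors and nuclear cofactors outside the target list, with a median of 0.02. Among 19 cadherin and catenin genes of junctions, Cdh20 alone was lower (2.35-fold, 1.95 to 2.83), and Cdh2, the main neural cadherin, stood at 353 CPM in dE3 and 391 in cKO. Neither of these lists includes Axin2, Lef1 or Tcf7, which are counted as targets.

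Dorsal progenitor genes split into high and low members. The roof plate and dorsal list had 17 measured genes, of which 9 were called higher in dE3 and 5 lower. These counts stand beside 6.27% and 4.61% of all measured genes. The list's median was 1.01. Prdm13, a repressor that guides dorsal inhibitory neurons, had 1871 counts in dE3, 220 in cKO and 295 in WT (7.86-fold higher, 6.83 to 9.08). The homeobox genes of the dorsal midline and flanks were high together: Msx2 had 297, 43 and 66 counts (6.38-fold, 4.62 to 9.0), Msx3 had 2042, 353 and 747 (5.34-fold, 4.77 to 6.00) and Msx1 had 1652, 336 and 453 (4.54-fold, 4.04 to 5.12). Without 1 transcript the log2 ratio of Msx3 was 1.82 in place of 2.42. For the 3 Msx genes the order was dE3, WT, cKO, so the library that lost β-catenin was the lowest. Zic5, a zinc finger gene of the dorsal neural tube, was 5.07-fold higher (4.63 to 5.56), with a log2 ratio of 1.15 in place of 2.34 without 1 transcript, and Zic1 had a log2 ratio of 0.89, just under the threshold. Zic2, Pax3 and Olig3 were also higher.

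The 5 dorsal members lower in dE3 came from several domains. Pax7, a dorsal progenitor factor, had 60 counts in dE3, 271 in cKO and 212 in WT (lower by 4.89-fold, 3.68 to 6.58). Gsx2 had 6, 41 and 55 counts (7.40-fold lower, 3.12 to 21.3) and Gsx1 had 54, 166 and 149 (3.33-fold lower, 2.43 to 4.61), both of which mark progenitors of the later dorsal interneurons. The ligand genes Bmp6 (171, 412 and 244 counts, 2.61-fold lower) and Gdf7 (16, 30 and 15 counts, 2.03-fold lower) were also lower, and cKO was the highest library for both. The Gdf7 call ended under other scalings (log2 ratios of -0.99 and -0.98).

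Intermediate and ventral progenitor genes were lower or not called. Of 14 measured, 0 were higher and 5 lower, beside 6.27% and 4.61% of all measured genes, and the median was -0.71. Olig2, a bHLH factor of the progenitors of motor neurons and oligodendrocytes (chromosome 16, 91225550 to 91228677), had 0 counts in dE3, 452 in cKO and 532 in WT, at least 163-fold lower. Dbx1 and Dbx2, which mark progenitors midway between dorsal and ventral, had 9 and 8 counts in dE3, 147 and 163 in cKO, and 204 and 153 in WT. These are 17.7-fold (9.06 to 39.4) and 22.1-fold lower (10.9 to 51.9). Olig2, Dbx1 and Dbx2 passed the minimum only through cKO, so they could not have been called higher. Olig2 and the Dbx genes stood apart from the rest of the list. Nkx2-2 and Foxa2, which mark the most ventral domains, had log2 ratios of -0.25 and -0.48, but -1.61 and 0.77 without 1 transcript each. Nkx6-1, whose domain includes that of Olig2, had 647 counts in dE3, 1116 in cKO and 871 in WT. Irx3, a broader factor, had a log2 ratio of 0.45. Prdm12 was 3.09-fold lower (2.76 to 3.47), with 406, 1160 and 706 counts, and is also a marker of sensory ganglia, whose other genes are described with the neurons. Sp8 was 2.28-fold lower (1.90 to 2.73).

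Several proneural genes were higher in dE3. Of 18 measured, 5 were higher and 1 lower, beside 6.27% and 4.61% of all measured genes, and the median was 0.46. Neurog2, a bHLH factor that starts neuronal differentiation (chromosome 3, 127633135 to 127635631), had 8117 counts in dE3, 542 in cKO and 741 in WT, 13.8-fold higher (12.7 to 15.1). Neurog1 and Neurod1 had log2 ratios of 0.53 and 0.26. Genes active in newborn neurons were higher, with Nhlh1 at 127 CPM in dE3, 42.3 in cKO and 40.3 in WT (3.0-fold, 2.82 to 3.19), Neurod4 2.89-fold (2.36 to 3.54) and Insm1 2.51-fold higher (2.32 to 2.72). Btg2, a gene of neurogenic divisions, was 2.26-fold higher (2.10 to 2.43). Of the factors that other domains depend on, Atoh1 had 10 counts in dE3 and in cKO and 38 in WT, and Ptf1a had 19, 14 and 20, so both fell under the minimum.

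Genes of mature neurons were not higher along with them. The 23 pan-neuronal genes had a median of -0.45, with 0 higher, 2 lower and 1 above a log2 ratio of 0. The genes lower were those of neurofilaments: Nefm had 25579 counts in dE3, 55627 in cKO and 35656 in WT (lower by 2.35-fold, 2.32 to 2.39) and Nefl had 27957, 52643 and 36986 (2.04-fold lower, 2.01 to 2.07). WT lay between the mutants for both genes. Nefl was under 2-fold with both other scalings of the counts, at -0.99 on the log2 scale, and Nefm without its most different transcript, at -0.87. Glutamatergic genes had 0 of 14 called and a median of -0.28. GABAergic and glycinergic genes had 3 of 16 lower and 0 higher, beside 4.61% and 6.27% of all measured genes, with a median of -0.21. The 3 were the peptide gene Gal, with 186, 596 and 314 counts (3.47-fold, 2.94 to 4.11), Pdyn (2.12-fold, 1.91 to 2.35) and Glra1 (2.07-fold, 1.77 to 2.42). The transmitter enzymes Gad1 and Gad2 had log2 ratios of -0.12 and 0.05.

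Among neuron class factors, few passed the threshold. Of 21 dorsal interneuron factors, 1 was higher and 2 lower (median -0.23): Tlx1 had 4 counts in dE3, 36 in cKO and 43 in WT (lower by 9.74-fold, 3.49 to 37.7), and Barhl1 was 2.11-fold lower. The Barhl1 call ended with TPM values (-0.99) and without 1 transcript (-0.46). Gbx2 was 2.07-fold higher, but its log2 ratio was -1.87 without 1 transcript. Of 12 ventral interneuron factors, Sim1, a factor of V3 interneurons, had 640, 194 and 252 counts (3.05-fold higher, 2.59 to 3.6) and Gata3 had 141, 294 and 230 (2.26-fold lower, 1.84 to 2.78). Motor neuron genes had 1 of 16 higher and 5 lower, beside 6.27% higher and 4.61% lower over all measured genes, and the median was -0.79. Slc18a3, the vesicular acetylcholine transporter, had 715, 1549 and 1039 counts (2.34-fold lower, 2.14 to 2.57), and Isl2 had 484, 1029 and 641 (2.3-fold lower, 2.06 to 2.57). Prph, Nefh and Etv4 were 2.49-, 2.41- and 2.46-fold lower, and Foxp1 was the member higher. Without their most different transcript the calls of Prph (-0.59), Etv4 (-0.82) and Isl2 (-0.81) ended and Foxp1 reversed to -0.93. Mnx1 and Chat, which mark motor neurons more strictly, had log2 ratios of -0.94 and -0.39.

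Markers of dorsal root ganglia, which lie beside the cord and express several of the same genes, moved with these lists. Of 15 measured, 0 were higher and 7 lower, beside 6.27% and 4.61% of all measured genes. The median was -0.96, and none was at 0 in any library. Trpv1, the capsaicin receptor, had 84 counts in dE3, 267 in cKO and 134 in WT (lower by 3.44-fold, 2.68 to 4.45) and the sodium channel gene Scn10a had 505, 1200 and 594 (2.57-fold lower, 2.32 to 2.86). In these genes cKO was the high library, and dE3 and WT lay closer to each other. Summed over the list, the level was 2359 CPM in dE3, 2981 in cKO and 2559 in WT. Most of each sum was Tubb3, a gene of cord neurons as well, at 1788, 2090 and 1797 CPM. The sums therefore say little about the ganglion markers. Their part in the lower values of Prph, Nefh, Nefm, Nefl, Isl2 and Prdm12 was not tested.

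By median, astrocyte lineage genes were lower in dE3 more than any other list. The list had 23 measured members, 12 of them lower and 1 higher, beside 4.61% and 6.27% of all measured genes. Its median was -1.13, the lowest of the 44 lists. The summed level was 2328 CPM in dE3, 2795 in cKO and 2923 in WT. That is a dE3-to-cKO ratio of 0.83, and several other lists had a lower one, such as oligodendrocyte genes with 0.67. Slc6a11, a GABA transporter of astrocytes, had 705 counts in dE3, 5890 in cKO and 5124 in WT (lower by 9.04-fold, 8.36 to 9.79). Hopx, a homeodomain gene of radial glia, stood at 13.8, 69.8 and 62.4 CPM (5.04-fold lower, 4.57 to 5.57), and Aqp4, the water channel, had 39, 174 and 132 counts (4.83-fold lower, 3.4 to 7.02). Hepacam and Fgfr3 were 3.34-fold (2.73 to 4.12) and 3.04-fold lower (2.81 to 3.30). In each of these 5 genes dE3 was the low library and cKO and WT lay close together. The glutamate transporters did not follow, since Slc1a3 had a log2 ratio of -0.24 and Slc1a2 one of 0.85 (2.04 without 1 transcript). Nor did the gliogenic factors: Nfib was the member higher (2.06-fold, 2.01 to 2.12) but reversed to -1.56 without 1 transcript, and Sox9 had a log2 ratio of 0.04. Gfap had 13 counts in dE3, 5 in cKO and 2 in WT.

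Oligodendrocyte lineage genes were in part lower in dE3, most of all Olig1 and Olig2. Of 17 measured, 6 were lower and 1 higher, beside 4.61% and 6.27% of all measured genes, and the median was -0.44. Olig1, next to Olig2 on chromosome 16 (91269772 to 91271933), had 2 counts in dE3, 1200 in cKO and 1064 in WT, lower by 649-fold (179 to 5369). Sox8 had 123, 602 and 641 counts (5.30-fold lower, 4.36 to 6.48). Pdgfra, the receptor of oligodendrocyte precursors that mesenchyme also expresses, had a log2 ratio of 0.04, and Nkx2-2 one of -0.25. Ptprz1 was 2.21-fold lower, and Sox10, which Schwann cells share, 2.01-fold lower. The Sox10 call ended under both other scalings of the counts (-0.97), and that of Ptprz1 with TPM values (-0.91) and without 1 transcript (-0.94).

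Progenitor genes of all domains gave a mixed picture. Of 17 neural progenitor and radial glia genes, 3 were higher and 4 lower, beside 6.27% and 4.61% of all measured genes. The list's median was 0.28. Ptn, a secreted growth factor, had 56885 counts in dE3, 13500 in cKO and 16549 in WT (3.89-fold higher, 3.82 to 3.97), and Hmga2 was 2.04-fold higher (a log2 ratio of 0.95, under the threshold, without 1 transcript). The SoxB1 gene Sox1 was 2.64-fold lower (2.27 to 3.08) and its relative Sox3 2.08-fold lower, while Sox2 had 4387, 2423 and 3009 counts and a log2 ratio of 0.74. Sox21 had 426, 1223 and 1206 counts (3.11-fold lower, 2.78 to 3.48) and Ednrb, an endothelin receptor, 1542, 4507 and 4439 (3.16-fold lower, 2.99 to 3.35). Of 19 Notch pathway genes, Hes5 alone was called (2.04-fold higher, 1.89 to 2.19), and its log2 ratio was 0.16 without 1 transcript.

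**Figure D3:**
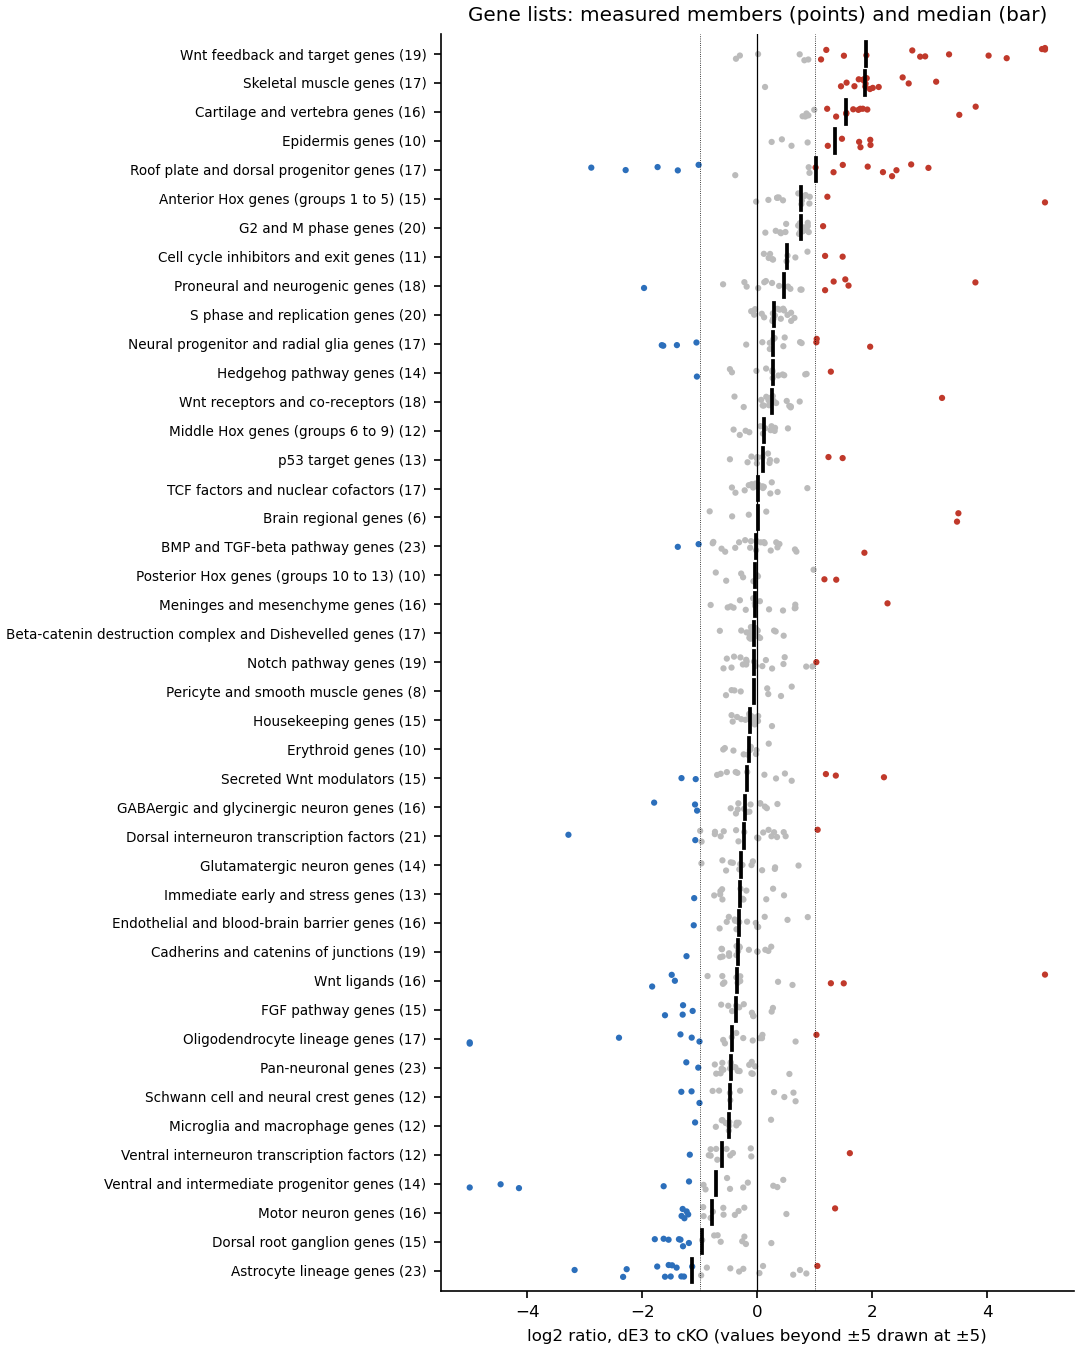
log2 ratio of dE3 to cKO (x axis) for the measured members of the gene lists (rows, with the number measured in brackets), ordered by median (black bar), with called members in red (higher) and blue (lower). Wnt targets stand at the top with a median of 1.90, next to genes of muscle, cartilage and epidermis, and astrocyte genes at the bottom with -1.13.

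Cell cycle genes lay slightly higher in dE3, nearly all of them under the threshold. All 20 G2 and M phase genes had log2 ratios above 0 and their median was 0.76, but only Bub1, a mitotic checkpoint kinase, was called (2.21-fold, 1.94 to 2.52), and not without 1 transcript (0.64). Mki67 had 4443 counts in dE3, 2440 in cKO and 2260 in WT, a ratio of 1.68 (1.60 to 1.77). The 20 S phase genes had 0 called and a median of 0.30. Among 11 inhibitors and exit genes 2 were higher and 0 lower (median 0.51): Btg2 and Cdkn1a, the p21 inhibitor, with 1854, 613 and 547 counts (2.79-fold, 2.55 to 3.07). Mdm2, Ccng1 and Bax, other targets of p53, had log2 ratios of 0.09, -0.01 and -0.10, and that of Mdm2 was 1.89 without 1 transcript. Eda2r was the other of 13 p53 target genes called (2.36-fold higher, 1.62 to 3.49).

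Signals other than Wnt differed in single members. In the Hedgehog list, Gli3, the main repressor of the pathway, had 1708 counts in dE3, 651 in cKO and 663 in WT (2.42-fold higher, 2.21 to 2.66) and the ligand gene Shh had 268, 513 and 361 (2.07-fold lower, 1.78 to 2.41). The receptor and target Ptch1 had a log2 ratio of 0.15, and the list's median was 0.26 over 14 genes. In the BMP list, the antagonist Grem1 had 1152, 293 and 323 counts (3.63-fold higher, 3.19 to 4.14), and Bmp6 and Gdf7 were the 2 of 23 lower. Targets of BMP signals went both ways, with Id1 at -0.78 and Id3 at 0.35. Of 15 FGF pathway genes, 4 were lower and 0 higher, beside 4.61% and 6.27% of all measured genes, and the median was -0.37. Lower were the receptor Fgfr3, the targets Etv5 (2.45-fold, 2.23 to 2.69) and Etv4, and Fgf15 (2.18-fold, 1.84 to 2.59). The feedback inhibitors Spry1 and Spry2 had log2 ratios of 0.27 and -0.09.

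Hox genes, which record position along the body axis, differed by paralogue group. Hoxb1 (chromosome 11, 96365752 to 96368256) had 1132 counts in dE3, 21 in cKO and 59 in WT, 49.8-fold higher (32.4 to 80.8), a log2 ratio of 5.64 that was 4.23 without 1 transcript. Among the 15 measured genes of groups 1 to 5, 14 had log2 ratios above 0, 2 were higher and 0 lower, and the median was 0.76. Hoxd3 was the other gene called (2.33-fold, 2.18 to 2.48), and it shares 55.6% of its words with other genes. For several of the rest the low library was cKO: Hoxa5 stood at 125 CPM in dE3, 69.6 in cKO and 140 in WT, and Hoxc5 at 50.9, 27.2 and 53.5. Summed over these groups the level was 1052 CPM in dE3, 703 in cKO and 1041 in WT. The 12 genes of groups 6 to 9 had 0 called and a median of 0.12. Those of groups 10 to 13 had a median of -0.04, and the summed level was 345, 451 and 360 CPM. Hoxd12 and Hoxd13 were higher (2.24- and 2.59-fold) at 136 and 56 counts in dE3. The summed levels of the anterior and posterior groups thus differed in opposite directions between dE3 and cKO, and WT lay near dE3 in both. The posterior members did not move together: 4 of 10 measured had log2 ratios above 0, 2 were called higher and 0 lower. Hoxc10 alone stood at 97.4 CPM in dE3 and 161 in cKO.

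**Figure D4:**
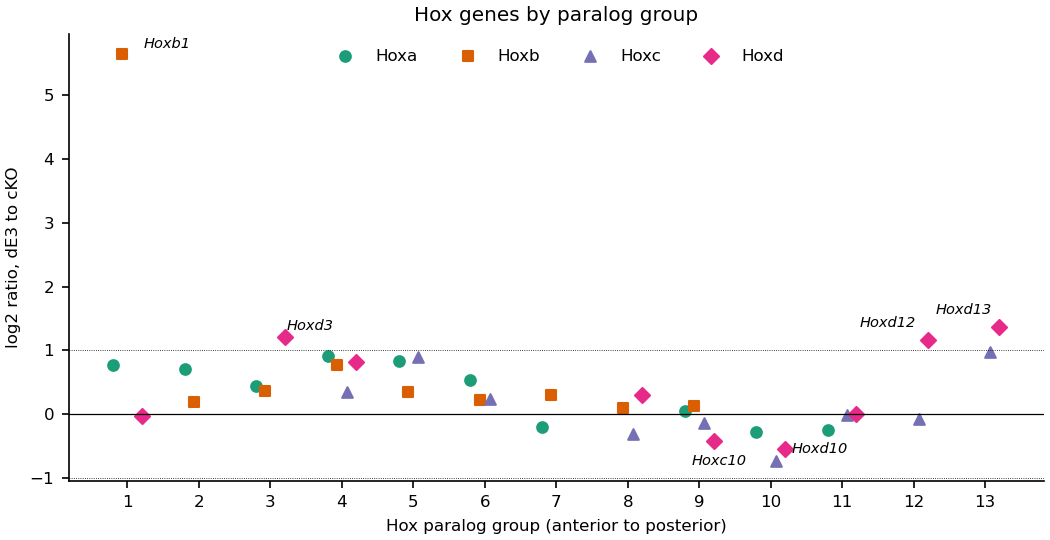
log2 ratio of dE3 to cKO (y axis) for each measured Hox gene against its paralogue group (x axis), with 1 symbol per cluster and dotted lines at 2-fold. Hoxb1 stands apart at 5.64, most other genes of groups 1 to 5 lie between 0 and 1, and Hoxc10 (-0.72) and Hoxd10 (-0.54) lie below 0.

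Genes typical of tissues that surround the cord were higher in dE3 than in cKO. Of 17 skeletal muscle genes, 16 were higher and 0 lower, beside 6.27% and 4.61% of all measured genes, and the median was 1.88. Their summed level was 227 CPM in dE3, 61.4 in cKO and 17.5 in WT. Myod1, the muscle determination factor, had 187, 30 and 11 counts, and the muscle actin Actc1 had 1504, 322 and 70. Tnni1 and Tnnc2, of the troponin complex, were at 0 in WT, and Ckm, the muscle creatine kinase, was at 0 in WT and cKO with 28 counts in dE3. Ckm was the 1 measured member that passed the minimum only through dE3, so it had to be higher there. Of 16 cartilage and vertebra genes, 11 were higher and 0 lower, and the median was 1.55. The summed levels were 1266, 578 and 236 CPM. Pax1, a factor of the vertebral column, had 1217, 81 and 10 counts, a 13.9-fold difference (11.1 to 17.6), while Hapln1 and Matn4 differed 3.76- and 3.46-fold (Matn4 at a log2 ratio of 1.17 in place of 1.79 without 1 transcript). Epidermis genes had 6 of 10 higher and sums of 36.2, 15.7 and 12.8 CPM, among them Krt5 with 270, 64 and 65 counts. The library with least of these genes was WT in each list, and that with most was dE3. Some cartilage and epidermis genes also passed the minimum only through dE3, such as Nkx3-2 (148 counts in dE3, 12 in cKO) and Krt8 (45 and 12). Such genes could not have been called lower.

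Other neighbouring cells did not follow that order. Meninges and mesenchyme genes had a median of -0.04 and sums of 1562, 1825 and 854 CPM in dE3, cKO and WT, with Twist1 alone higher (4.8-fold, 4.15 to 5.57). Endothelial genes had a median of -0.32, with 0 of 16 higher and Cldn5, a junction protein of the blood-brain barrier, lower (2.15-fold, 1.98 to 2.34). The medians were -0.06 for pericyte, -0.49 for microglial, -0.15 for erythroid and -0.47 for Schwann cell and neural crest genes. Housekeeping genes had a median of -0.13 and 0 of 15 called. Summed levels in dE3, cKO and WT were 2712, 435 and 397 CPM for the Wnt targets and 227, 61.4 and 17.5 CPM for muscle genes. For cartilage genes they were 1266, 578 and 236 CPM. The part of muscle, cartilage or skin in the values of the Wnt targets or of other genes was not tested.

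Across all measured genes, 1116 were higher and 820 lower in dE3 than in cKO. Of these, 326 (1.83%) and 207 (1.16%) passed 4-fold. The quartiles of the log2 ratio were -0.29 and 0.28, and 88.8% of genes lay within 2-fold. Calls were most frequent at low levels: under 1 CPM, 22.1% of 2018 genes were higher and 14.2% lower, against 1.32% and 0.754% of the 2654 genes above 100 CPM. Long noncoding genes were higher in 15.6% of 2224 cases and protein-coding genes in 4.66% of 14798. Among genes that share at least 20% of their words with another gene, 8.90% were lower in dE3, against 3.84% of the others. At the minimum itself, the 174 genes whose larger count was 20 had a median log2 ratio of 0.12, and the 147 genes just outside, at 19, one of 0.13.

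**Figure D5:**
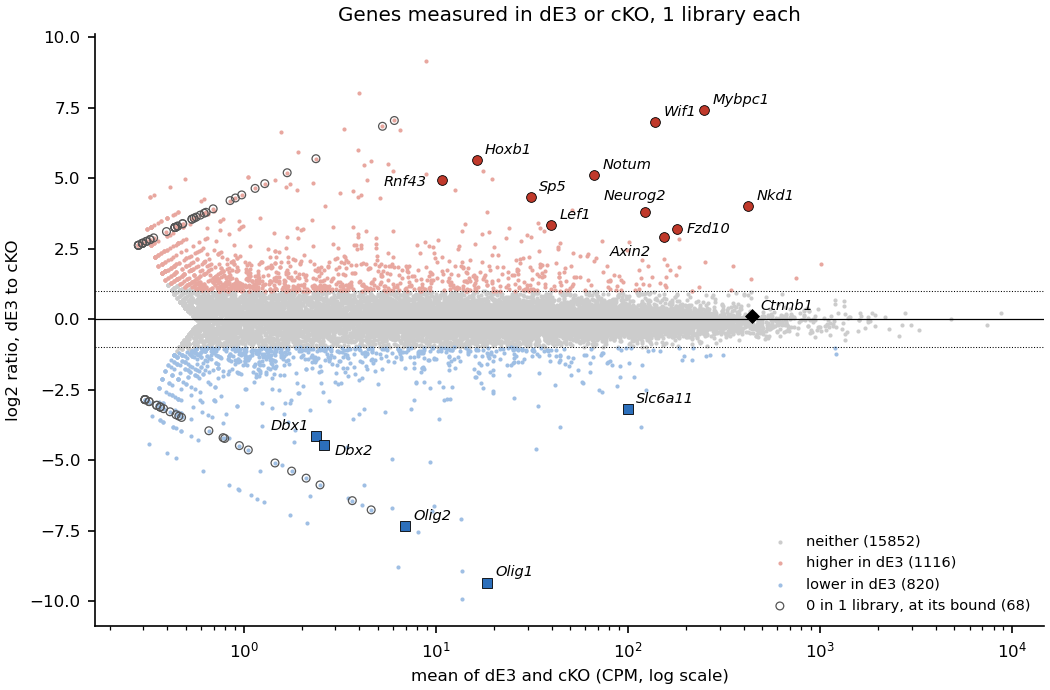
log2 ratio of dE3 to cKO (y axis) against the mean of both libraries in CPM on a log scale (x axis) for the 17788 measured genes, with genes at 0 in 1 library circled at their bound and dotted lines at 2-fold. Wif1, Mybpc1 and Nkd1 stand far above the cloud at high levels, Olig1 and Olig2 far below, and Ctnnb1 lies at 0.10.

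Of single genes, Mybpc1 led the higher ones. It encodes a myosin-binding protein of slow muscle and had 17497 counts in dE3, 95 in cKO and 63 in WT (170-fold, 139 to 210), while the summed muscle list differed far less. Edar, the ectodysplasin receptor of skin appendages, had 390, 8 and 4 counts (45-fold, 22.6 to 105), and the collagen gene Col6a4 had 1215, 29 and 62 (38.7-fold, 26.8 to 58.0). Without 1 transcript each, the log2 ratios of Mybpc1 and Col6a4 were 6.61 and 3.93 in place of 7.41 and 5.27. Ascl4 had 64 counts in dE3 and 0 in both others (at least 19.7-fold). Several extreme ratios fell on genes that share most of their sequence with another gene, and these are uncertain. Zfhx2os had 430, 0 and 461 counts (94.3% of words shared) and Xntrpc 291, 6 and 315 (87.6%). In the other direction, Trpc2 (96.4% shared) had 0, 163 and 0 counts. Of 2 genes named Map2k7, one had 299, 9 and 76 counts with 99.4% shared, and the other had a log2 ratio of -0.08.

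Beyond Olig1, Olig2 and the Dbx genes, the lowest ratios included genes of the cell surface. Bcan, the brevican proteoglycan of glial cells, had 252 counts in dE3, 1990 in cKO and 1712 in WT (lower by 8.55-fold, 7.49 to 9.78), and Cav1, the caveolin gene, had 58, 623 and 477 (11.6-fold, 8.87 to 15.5). Without 1 transcript each, the log2 ratio was -1.23 in place of -3.10 for Bcan and -1.46 in place of -3.54 for Cav1. Pcdhb21, a clustered protocadherin, had 13, 375 and 339 counts (31.2-fold, 18.0 to 59.2), and Pcdhgb4 had 546, 7167 and 7365 (14.2-fold). The Pcdhgb4 and Tmem170b ratios rested on 1 transcript each, and without it their log2 ratios were 0.26 and 1.70. Gstp2 had 0, 116 and 90 counts and shares 50.7% of its words with another gene.

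Genes close to Ctnnb1 were examined because the lines carry different alleles of it. Within 10 Mb, 10 of 130 measured genes were higher and 10 lower (7.69% each), against 6.45% and 4.26% of the 915 genes elsewhere on chromosome 9. Within 2 Mb, 2 of 64 were higher (3.13%) and 6 lower (9.38%). Snrk, a kinase gene, had 727 counts in dE3, 2645 in cKO and 2426 in WT, lower by 3.94-fold. Scn10a and Scn11a, of the dorsal root ganglion list, were also among those lower, Scn11a not with TPM values (-0.86). With 100 counts required, 8 of the 20 calls counted.

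Transcripts varied more than genes. Of 45792 measured, 7051 (15.4%) were higher and 5642 (12.3%) lower in dE3, and 3209 (7.01%) and 2650 (5.79%) passed 4-fold. Among 9098 genes that differed less than 2-fold and held at least 2 measured transcripts, 1835 (20.2%) had transcripts called in opposite directions. Counted in the same way against WT, the share was 18.2% for dE3 and 20.3% for cKO, so it was much the same for each pair of libraries. In Ttc28, 1 transcript had 4 counts in dE3, 11149 in cKO and 2591 in WT, and another had 11021, 1973 and 9081. In Herc2, a transcript with 4438 counts in dE3 and 3999 in WT had 0 in cKO, and another had 451, 547 and 4709 in dE3, WT and cKO. In Dbn1, a transcript with 361 and 5654 counts in dE3 and cKO stood beside one with 4503 and 274. Ttc28, Herc2 and Dbn1 were chosen for a gene total within 2-fold and transcripts called in opposite directions. Ctnnb1 also had both.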

How the data were processed

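Poly(A) RNA of 1 spinal cord library per genotype was prepared from 1 µg of total RNA, as the labels' protocols state. Bowtie2 2.3.2, CASAVA and the build GRCm38.p6 are listed in the submitters' processing notes. Which quantifier, annotation release and strand setting were used is not given in the sources used here. The deposited gene and transcript tables hold estimated counts as whole numbers. The deposited TPM values served as an alternative, and the deposited FPKM values were not used further.

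Ratios of dE3 to cKO were computed from counts scaled by TMM factors (edgeR 4.0.16, R 4.3.3) with cKO as the reference, so that WT had no part in them. Intervals are exact (Clopper-Pearson, 95%, scipy 1.17.1), and PCR copies without molecular identifiers make them too narrow. Genes and transcripts needed a count of 20 in either library, and a zero was set against 3 counts. The calculation was tested on simulated counts. Sequence sharing is the percent of 50-base words of a gene (1 in 16 sampled) found in another gene's GENCODE transcripts. Levels are compared between libraries and not between genes.

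The comparison and the 44 gene lists (689 symbols, 686 matched) were chosen with earlier results of these data known. Named are Ctnnb1, all measured Wnt targets, the 15 genes higher and 15 lower whose interval bound nearest 1 lay farthest from it (leaving out unnamed, predicted, pseudogene, mitochondrial, ribosomal protein and sex-linked genes), up to 5 called and 2 abundant uncalled members of each other list, and 6 genes with opposite transcripts. Other genes with values were chosen after these were seen, such as Pax7, Gsx2, Nfib, Foxa2, Sox2, Id1 and Snrk. Alternatives were DESeq2 1.42.0 size factors, total counts, other minimum counts, TPM with pseudocounts of 0.1 and 1, no interval, little sequence sharing, and leaving out the most different transcript. Some genes that this rule would name are not reported here.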

Additional observations from a re-analysis of the deposited data

How the results depend on the processing

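No paired analysis was possible because each genotype had 1 library, and for the same reason no replicate could be left out. Counts of calls depended on the minimum count and on the unit. With 100 counts required, 521 genes were higher and 378 lower, 3076 transcripts were higher and 2575 lower, 8 genes near Ctnnb1 were called, and 893 genes had opposite transcripts. With a minimum of 1 count, 1301 genes were lower. With a pseudocount of 1 TPM, 589 genes were higher and 367 lower, and 4339 transcripts were higher and 3285 lower. The number of Wnt targets higher was 13 as reported and between 9 and 14 under the alternatives. Scaling moved little: the median log2 ratio of all genes was -0.01 with TMM, 0.02 with DESeq2 size factors and 0.03 with total counts, and 223 of 226 named genes kept their direction and call under each of the last 2.

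Leaving out the most different transcript of a gene had the largest effect, and 90 of 125 named genes kept their direction and call. The log2 ratio then turned to -1.47 for Ctnnb1, 0.26 for Pcdhgb4, 1.70 for Tmem170b, -5.80 for Nkd2, -1.87 for Gbx2, 1.23 for Foxp2, -0.93 for Foxp1, -1.10 for Ebf3, -1.18 for Hoxb8, 3.32 for Dmbx1, 2.36 for Ttc28, 1.96 for Trim32, 3.74 for Efr3b and -2.18 for Tmem131. Other genes moved away from 0, such as Sp8 (-3.57), Gata3 (-4.64), Pdyn (-2.32), Gli3 (2.33), Cdkn1a (2.32), Eda2r (3.06), Trpv1 (-2.60), Pax3 (2.73) and Zic2 (2.32). The cause was not tested. Depth limits single genes near the minimum, where 3 counts correspond to 0.0848 CPM in dE3 and 0.0917 CPM in cKO.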

Other observations

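Genes outside the lists, chosen after their values were seen, are given here as single values. Robo3, a receptor that steers commissural axons across the midline, had 14245 counts in dE3, 3247 in cKO and 4652 in WT, 4.05-fold higher in dE3 (3.90 to 4.21). Scube2, a secreted protein that helps to release Hedgehog ligands, had 2205, 192 and 322 counts (10.6-fold higher, 9.15 to 12.4). Cd44, a receptor for hyaluronan, had 2318, 246 and 178 (8.71-fold higher, 7.63 to 9.97). Runx2, a factor of bone formation, had 538, 75 and 48 counts (6.63-fold higher, 5.20 to 8.56), and Alx4, a homeobox gene of mesenchyme, had 275, 29 and 31. Hand2 had 31 counts in dE3 and 0 in cKO and WT, at least 9.55-fold.

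Single genes lower in dE3 were picked in the same way. Kcnj10, a potassium channel of astrocytes, had 136 counts in dE3, 670 in cKO and 757 in WT, a log2 ratio of -2.41. Timp4, a protease inhibitor, had 66, 441 and 357 counts (-2.85), and Spon1, a floor plate matrix protein, had 3587, 9109 and 8227 (-1.46). The organic anion transporters Slc22a8 and Slc22a6 had log2 ratios of -2.91 and -2.63. In Apoe (929, 2431 and 1276 counts), Th (301, 818 and 444) and Cx3cl1 (198, 1114 and 418) cKO stood above both other libraries, with log2 ratios of -1.50, -1.56 and -2.61.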
